A study of Mus musculus with 12 samples.

Results

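NF-κB is a family of dimeric transcription factors, and its transcripts in cultured macrophages are described here through 10 genes. They are 5 subunits (Nfkb1, Nfkb2, Rela, Relb and Rel), 4 genes of the IκB family (Nfkbia, Nfkbie, Nfkbiz and Bcl3) and Tnfaip3, which encodes the ubiquitin-editing enzyme A20. The genes were chosen by symbol, not by their values in a comparison, though earlier results of these data were known. They are the rows of the deposited count table whose Ensembl identifiers map to these symbols, which gave 10 of 48526 genes. All 10 passed the count filter and were among the 12421 genes tested.

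As background, NF-κB dimers rest in the cytosol bound by IκB proteins until a kinase complex marks the IκB protein for destruction, and the freed dimer then enters the nucleus. The alternative arm runs through processing of the Nfkb2 precursor and its partner Relb. Nfkbia and Nfkbie encode cytosolic inhibitors, whereas Nfkbiz and Bcl3 encode nuclear members of the IκB family that bind subunits on DNA and can raise or lower transcription. Several of these genes are themselves textbook NF-κB targets, so the pathway feeds back on itself, and in macrophages it drives many genes of the inflammatory response.

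Bone marrow-derived macrophages (BMDMs) were grown from the marrow of 3 female C57Bl/6J mice in medium with 10 ng/mL mCSF, the growth factor that drives marrow cells to become macrophages, and were used on day 7. Cells of each mouse were left untreated (Untreated) or were exposed for 16 hr to 100 ng/mL Wnt3a, a secreted Wnt ligand (Wnt3a), to 100 pg/mL IL-4, a cytokine that signals through STAT6 (IL4), or to both (Wnt3a+IL4). RNA from the 12 cultures was sequenced as single reads, and the question for these genes was how each treatment moved their transcripts away from the level in untreated cells of the same mice. The cells came from animals of 1 strain and 1 sex, and each mouse gave 1 culture per condition.

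The Wnt3a and Wnt3a+IL4 columns of a mouse were not separate counts. For all 48526 genes, a mouse's count under Wnt3a was no lower than its count under Wnt3a+IL4 and no higher than 2 times that count, a limit that 6681 to 8625 genes broke when columns of different mice were paired. The counts of each mouse were therefore split into the difference, obtained by subtracting the Wnt3a+IL4 column from the Wnt3a column, and the remainder, obtained by subtracting the difference from the Wnt3a+IL4 column. Both parts come from columns labelled with Wnt3a, but the labels do not say which part is Wnt3a alone and which is the combination, and no assignment was made. Library totals were 13342492 to 17113982 for Untreated and IL4 and 14171994 to 17453377 for the parts.

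Markers of macrophages were abundant in every library. All 8 genes of the macrophage list were detected, with summed levels of 43980 to 68610 normalized counts (CPM, counts scaled to the normalized library size) over the 12 libraries. Most of this sum was Lyz2, with 34000 CPM in its lowest library (IL4) and 57330 CPM in its highest (difference). The lowest value of the list was 85.8 CPM, of Fcgr1 in IL4. The neutrophil list summed to 48.9 to 61.2 CPM in Untreated, 64.7 to 75.2 CPM in IL4, 35.7 to 56.5 CPM in the difference and 32.0 to 36.3 CPM in the remainder. The lists for stromal, T, B, dendritic and mast cells summed to at most 28.1 CPM in any library. Of 6 neutrophil genes tested, 1 fell in the difference and 4 in the remainder, beside 11.4% and 11.7% of all tested genes called lower there. Of the 8 macrophage genes, 4 rose in the difference and 2 in the remainder, beside 11.8% and 13.6% of all tested genes called higher, and 1 fell in IL4, where 3.4% of all tested genes were called. The part of either list in the results below was not tested. In bulk RNA, fewer cells of a type and less RNA per cell cannot be told apart. As checks of treatment, the IL-4 marker Retnla had 535 to 781 counts in the IL4 libraries and at most 1 count elsewhere. Retnla thus marked neither part as holding IL-4. Arg1, another IL-4 marker, had 19 to 26 counts in IL4, 97 to 402 in the remainder and at most 2 in the other groups. The IL-4 marker Ccl17 had 0 counts in Untreated, 0 to 9 in IL4, 1 to 13 in the difference and 15 to 76 in the remainder. Axin2, a Wnt target, had at most 1 count in Untreated and IL4, 1 to 5 in the difference and 9 to 13 in the remainder, too few to be tested.

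Promoter sequence was read from RefSeq (GRCm38.p6) for 7 of the 10 genes, Nfkb2, Rela, Rel, Nfkbia, Nfkbie, Bcl3 and Tnfaip3, as 10 windows of 300 bases. Nfkb1, Relb and Nfkbiz were not among them. The κB consensus, the element that NF-κB dimers bind, was searched on both strands. It was found in 8 of the 10 windows and in 6 of the 7 genes, against 8.46% of all 32851 windows. The following stretches run from 150 bases before the annotated start to base 30, counting the start as base 1, and capitals mark the κB consensus. They are shown because 3 belong to genes whose transcripts changed beside Wnt3a (Nfkb2, Bcl3 and Nfkbie), 1 to the textbook feedback inhibitor (Nfkbia) and 1 to the only gene with windows but no match (Rela).
Nfkb2, window 1, chr19:46304587-46304766 (plus strand): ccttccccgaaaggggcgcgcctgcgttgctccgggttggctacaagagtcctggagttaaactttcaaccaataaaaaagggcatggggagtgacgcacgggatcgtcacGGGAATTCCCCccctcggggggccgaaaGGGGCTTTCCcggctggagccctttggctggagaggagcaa
Bcl3, chr7:19822726-19822905 (minus strand): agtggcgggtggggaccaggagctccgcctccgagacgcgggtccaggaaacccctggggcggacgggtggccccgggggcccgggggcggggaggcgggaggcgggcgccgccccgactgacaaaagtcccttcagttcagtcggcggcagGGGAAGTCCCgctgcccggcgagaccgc
Nfkbie, chr17:45555550-45555729 (plus strand): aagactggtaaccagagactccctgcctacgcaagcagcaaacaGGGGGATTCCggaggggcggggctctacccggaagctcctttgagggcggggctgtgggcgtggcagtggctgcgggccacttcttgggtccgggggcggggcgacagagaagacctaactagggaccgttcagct
Nfkbia, chr12:55492618-55492797 (minus strand): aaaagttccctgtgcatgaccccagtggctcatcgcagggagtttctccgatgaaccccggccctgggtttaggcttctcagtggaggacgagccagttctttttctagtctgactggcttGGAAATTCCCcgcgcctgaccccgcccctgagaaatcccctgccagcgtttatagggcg
Rela, chr19:5637391-5637570 (plus strand): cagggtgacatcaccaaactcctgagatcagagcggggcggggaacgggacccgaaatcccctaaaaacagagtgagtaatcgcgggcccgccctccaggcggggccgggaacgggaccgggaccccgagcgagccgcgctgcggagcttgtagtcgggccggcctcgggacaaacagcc

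In window 1 of Nfkb2 the matches began at bases -39, -38 and -11, and those at -39 and -38 overlapped. The match of Bcl3 began just inside the transcript, at base 3, that of Nfkbie at base -106 and that of Nfkbia at base -29. Windows 2 and 3 of Nfkb2 overlap and share 1 match. A STAT6-type element (TTCNNNNGAA) was found in 1 window of Tnfaip3, at base -242, against 6.95% of all windows, and the shorter STAT-type element (TTCNNNGAA) in window 1 of Nfkb2, at base -148, against 8.3% of all windows. The TCF/LEF element of Wnt target genes, searched as CTTTGAT, was found in none of the 10 windows, against 3.73% of all windows. A match describes these letters only, and no match says nothing of a factor's binding.

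**Figure D1:**
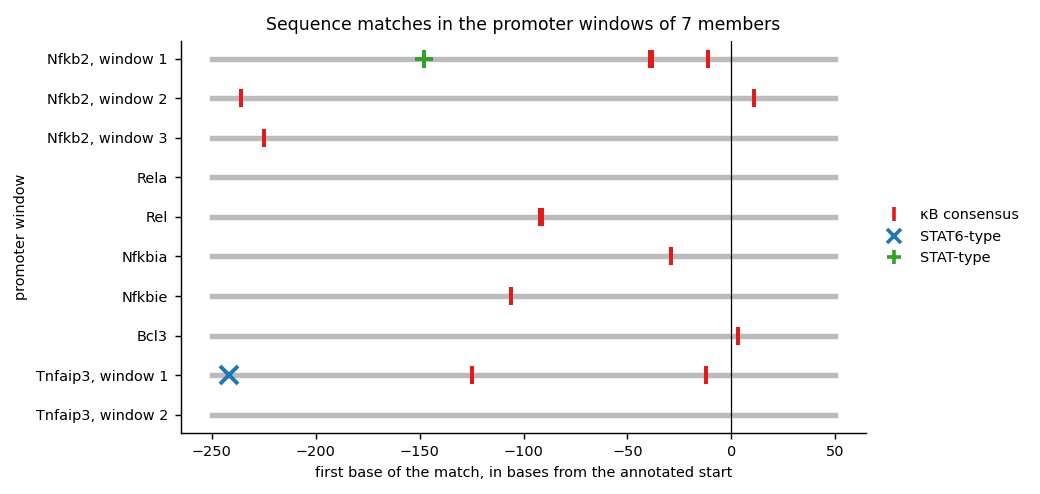
Matches to 3 sequence elements in the 10 promoter windows of 7 genes (vertical axis), by the position of the first base of the match relative to the annotated start (horizontal axis, in bases). Grey bars are the windows searched. The κB consensus lies in 8 of the 10 windows, and the Rela window and window 2 of Tnfaip3 hold no match to it.

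Levels of the 10 genes in untreated cells spanned a wide range when divided by exon length. Nfkbia stood highest, with 81.6, 90.5 and 104.1 CPM per kb in its lowest, middle and highest library, followed by Rela, the main activating subunit, with 49.0, 52.3 and 59.3 CPM per kb. Nfkb2 followed with 23.1 to 29.9 CPM per kb. Bcl3, Nfkb1, Nfkbie and Relb then lay together between 15.6 and 20.1 CPM per kb, and their libraries overlapped. Nfkbiz had 8.52 to 9.70 CPM per kb, below all of these. Rel, which encodes c-Rel, and Tnfaip3 were the lowest, with 4.10 to 6.68 and 4.58 to 4.86 CPM per kb, and could not be ranked against each other. Set among 12392 tested genes with a known length, the untreated levels lay between percentile 50.3 for Tnfaip3 and percentile 96.9 for Nfkbia. This order depends on the length used, which holds every annotated exon base of a gene, 12061 for Nfkb1 and 3072 for Rela. Not divided by length, Nfkb1 stood highest of the 10, with 198.0 to 216.1 CPM, above Rela with 150.5 to 182.2 CPM.

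Among the subunits, Nfkb2 transcripts rose in both parts from Wnt3a columns, and no change in the other 4 passed the test. Among the IκB family genes, Bcl3 rose, Nfkbie fell and Nfkbiz fell, and Nfkbiz was lower still in the remainder than in the difference. Of the 10 genes, 4 were thus called in the difference against Untreated (2 higher, 2 lower), where 23.2% of all tested genes were called (11.8% higher, 11.4% lower), and the same 4 in the remainder, where 25.3% were called (13.6% higher, 11.7% lower), at an adjusted p under 0.05 by edgeR's quasi-likelihood test. Between the parts, 1 was called, against 5.25% of all tested genes. In IL4, 0 were called by edgeR, against 3.4% of all tested genes, 2 had an unadjusted p under 0.05 (Nfkbiz and Rel), and DESeq2 called 1. Scaled by total counts, 8 were called in the difference (2 higher, 6 lower) and 7 in the remainder (2 higher, 5 lower).

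Libraries of the groups compared did not overlap for 6 of the 10 in the difference against Untreated (39.2% of all tested genes), 6 in the remainder (35.6%), 3 in IL4 (19.8%) and 2 between the parts (22.4%). The median log2 fold change of the 10 was -0.04 in IL4, -0.14 in the difference, -0.04 in the remainder and -0.04 between the parts, against 0.00, -0.01, -0.02 and 0.01 over all tested genes. The plot of normalized counts by library shows these levels for each mouse, and the following paragraphs give them by the role of each gene.

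**Figure D2:**
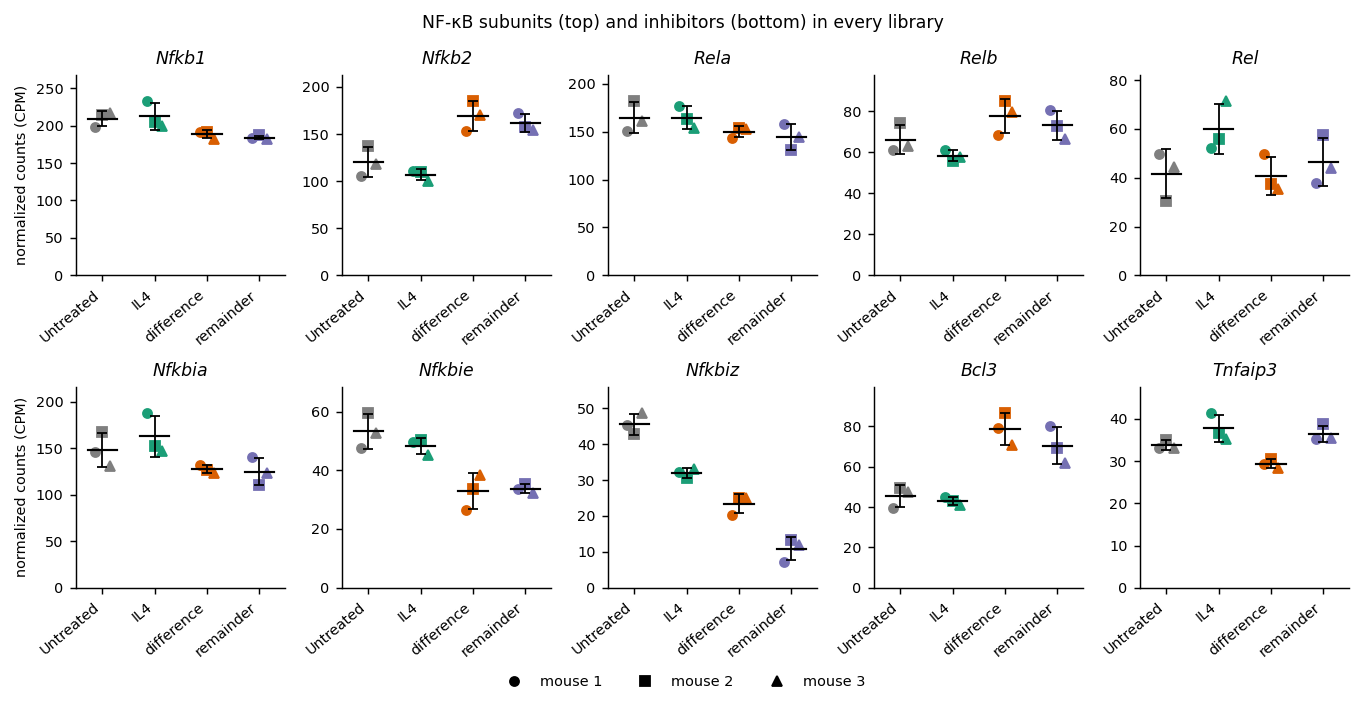
Normalized counts (CPM, vertical axes, each starting at 0) of the 5 subunits (top row) and of the IκB family genes and Tnfaip3 (bottom row) in Untreated, IL4, the difference and the remainder. Symbols are the 3 mice, horizontal lines are means and bars are SD (n = 3). All libraries of both parts lie above Untreated for Nfkb2 and Bcl3 and below it for Nfkbie and Nfkbiz.

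Nfkb2 encodes the precursor p100, which holds Relb in the cytosol and is processed to p52. Its normalized counts in mouse 1, 2 and 3 were 106.0, 136.9 and 118.5 CPM in Untreated and 110.8, 110.2 and 100.3 CPM in IL4. They were 153.1, 185.4 and 169.8 CPM in the difference and 172.3, 157.7 and 154.3 CPM in the remainder. Every library of both parts was above every untreated library, whereas IL4 and Untreated overlapped. Nfkb2 was 1.41-fold higher in the difference (log2 fold change 0.49, SE 0.10, adjusted p = 0.0023 by edgeR's quasi-likelihood test with Benjamini-Hochberg adjustment) and 1.34-fold higher in the remainder (0.42, SE 0.10, adjusted p = 0.0058). The 2 comparisons share their untreated libraries. Without mouse 3 the sizes were similar, at 0.49 and 0.45, but neither passed (adjusted p = 0.073 and 0.088). Of the exon bases of Nfkb2, 18.1% overlap genes on the other strand (Psd and AC114539.1), and the strand setting of the counting is not given in the sources used here. Psd itself had 122 to 226 counts per library, against 1390 to 3037 for Nfkb2. Counts of AC114539.1 were not read, and how reads in the overlap were assigned was not tested.

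Relb, the partner of Nfkb2 products, had 61.1, 74.2 and 62.9 CPM in Untreated, 61.3, 55.8 and 57.9 CPM in IL4, 68.5, 85.1 and 79.5 CPM in the difference and 80.5, 72.8 and 66.4 CPM in the remainder. The difference was above Untreated within each of the 3 mice, but the groups overlapped and the change did not pass (log2 fold change 0.23, 95% interval 0.01 to 0.46, adjusted p = 0.12). In the remainder the log2 fold change was 0.15 (95% interval -0.07 to 0.37, adjusted p = 0.32). Leaving out the untreated library of mouse 2 gave 0.33 for the difference, which then passed (adjusted p = 0.046).

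The subunits of the canonical arm, Nfkb1, Rela and Rel, did not pass in any comparison. Nfkb1, which encodes the precursor of p50, had 198.0, 213.4 and 216.1 CPM in Untreated, 233.1, 204.4 and 198.8 CPM in IL4, 191.4, 191.2 and 182.1 CPM in the difference and 183.6, 186.8 and 181.6 CPM in the remainder. Both parts lay below every untreated library by a narrow margin, and neither log2 fold change passed, at -0.15 (adjusted p = 0.16) and -0.18 (adjusted p = 0.084). Rela had 150.5, 182.2 and 160.6 CPM in Untreated, 176.9, 163.1 and 153.8 CPM in IL4, 143.1, 153.7 and 152.3 CPM in the difference and 157.6, 130.7 and 144.0 CPM in the remainder. For Rela, IL4 and both parts overlapped Untreated. Its log2 fold changes against Untreated were 0.00 in IL4, -0.14 in the difference and -0.19 in the remainder. Their 95% intervals were -0.19 to 0.20, -0.33 to 0.06 and -0.39 to 0.00. Scaling by total counts, which shifts the median of all tested genes to -0.10 in the difference and -0.13 in the remainder, gave -0.24 and -0.29 for Nfkb1 and -0.22 and -0.30 for Rela, and all 4 then passed.

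Rel, the subunit with the fewest counts, varied widely between mice. Its untreated libraries held 49.9, 30.6 and 44.5 CPM, and its IL4 libraries 52.1, 55.9 and 71.6 CPM. Mouse 2 had the lowest value in Untreated, and all 3 IL4 libraries lay above all untreated ones, by a margin that was small in mouse 1. The log2 fold change under IL-4 was 0.52 (SE 0.20, adjusted p = 0.21) and did not pass. Rel had 49.6, 37.4 and 35.3 CPM in the difference and 38.1, 57.5 and 44.0 CPM in the remainder, which overlapped Untreated.

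Taken per length, the shares of the 5 subunits differed between groups more than their sum did. The summed level was 119.7 ± 9.65 CPM per kb (SD, n = 3) in Untreated, 117.6 ± 5.65 in IL4, 126.8 ± 6.56 in the difference and 122.4 ± 6.47 in the remainder, with overlapping libraries. The share of Nfkb2 was 20.8% to 23.0% in Untreated, 19.4% to 20.8% in IL4, 27.8% to 30.4% in the difference and 28.4% to 28.9% in the remainder. The share of Rela was 44.2% to 45.6% in Untreated and 44.3% to 46.5% in IL4, and lower in both parts, at 37.6% to 39.1% and 35.8% to 39.5%. Shares of a sum are tied, so a higher share of Nfkb2 lowers those of the others, and the change of Rela itself did not pass in either part. The share of Relb was 13.7% to 14.7% in Untreated, 12.4% to 13.2% in IL4, 14.7% to 16.4% in the difference and 14.4% to 15.95% in the remainder.

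**Figure D3:**
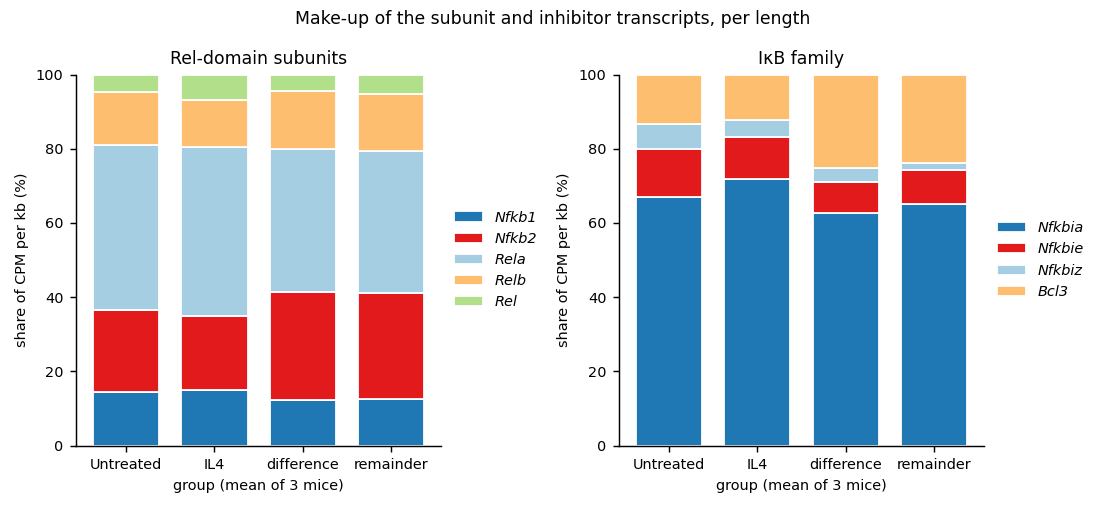
Share of each transcript in the summed CPM per kb of the 5 subunits (left) and of the 4 IκB family genes (right), as the mean of 3 mice in each group. The share of Nfkb2 goes from 21.9% in Untreated to 29.1% in the difference and 28.8% in the remainder. Bcl3 goes from 13.5% of the IκB sum to 25.2% and 23.8%.

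Nfkbiz encodes IκBζ, a nuclear IκB protein known as a coactivator of late inflammatory genes, and had the widest range of the 10. Its normalized counts in mouse 1, 2 and 3 were 45.2, 42.8 and 48.7 CPM in Untreated and 32.1, 30.5 and 33.1 CPM in IL4. They were 20.3, 24.9 and 24.9 CPM in the difference and 7.27, 13.4 and 11.8 CPM in the remainder. The 4 groups did not overlap, in the order Untreated, IL4, difference, remainder, and every mouse had this order. Against Untreated, Nfkbiz fell by 48.8% in the difference (log2 fold change -0.97, SE 0.16, adjusted p = 0.00054) and fell by 76.2% in the remainder (-2.07, SE 0.17, adjusted p = 6.7e-07). Within single mice the log2 ratios were -1.16, -0.78 and -0.96 for the difference and -2.64, -1.67 and -2.04 for the remainder. The remainder rests on 117 to 218 counts per library, against 665 to 841 in Untreated.

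The drop from the difference to the remainder was itself tested. Nfkbiz was lower in the remainder by a log2 fold change of -1.11 (SE 0.17, 95% interval -1.47 to -0.74, adjusted p = 0.0015), with within-mouse log2 ratios of -1.48, -0.89 and -1.08. This size was similar without mouse 3, at -1.13, but did not pass (adjusted p = 0.11). In the columns as deposited, whose reads are shared, Wnt3a held 19.1 ± 2.67 CPM and Wnt3a+IL4 17.0 ± 2.75 CPM of Nfkbiz (SD, n = 3), and the log2 difference of Wnt3a+IL4 from Wnt3a was -0.17 (adjusted p = 1). In IL4 alone the fitted level of Nfkbiz was 0.701 times that of Untreated, which did not pass (log2 fold change -0.51, SE 0.16, adjusted p = 0.11). Its within-mouse log2 ratios there were -0.49, -0.49 and -0.56, and it passed by DESeq2 (adjusted p = 0.036) and in the fit of the Untreated and IL4 libraries alone (adjusted p = 0.015).

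Bcl3, the nuclear IκB protein that binds p50 and p52 homodimers, moved in the opposite direction. It had 39.5, 49.7 and 47.5 CPM in Untreated, 44.9, 42.9 and 40.9 CPM in IL4, 79.2, 86.7 and 70.8 CPM in the difference and 80.1, 69.4 and 61.8 CPM in the remainder. Both parts lay above every untreated and IL4 library, and the parts overlapped each other. Bcl3 rose 1.73-fold in the difference (log2 fold change 0.79, SE 0.11, adjusted p = 0.00015) and 1.55-fold in the remainder (0.63, SE 0.11, adjusted p = 0.00086). The parts differed by a log2 fold change of -0.16 (95% interval -0.40 to 0.07, adjusted p = 0.45). Of its exon bases, 6.51% overlap the opposite-strand gene Gm16175, which had at most 4 counts in any library.

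Nfkbie, which encodes the cytosolic inhibitor IκBε, fell in both parts. It had 47.6, 59.5 and 52.7 CPM in Untreated, 49.5, 50.2 and 45.3 CPM in IL4, 26.6, 33.8 and 38.5 CPM in the difference and 33.7, 35.5 and 32.1 CPM in the remainder. All 6 libraries of the parts were below all 6 Untreated and IL4 libraries, while Untreated and IL4 overlapped. Nfkbie fell by 38.3% in the difference (log2 fold change -0.70, SE 0.12, adjusted p = 0.00092) and fell by 36.6% in the remainder (-0.66, SE 0.12, adjusted p = 0.0012). Between the parts the log2 fold change was 0.04 (95% interval -0.23 to 0.31, adjusted p = 0.91).

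Nfkbia, which encodes IκBα and is the textbook early feedback gene of the pathway, did not pass in any comparison. It had 145.7, 167.6 and 131.4 CPM in Untreated, 188.1, 152.7 and 147.6 CPM in IL4, 132.0, 126.9 and 123.2 CPM in the difference and 140.5, 110.7 and 124.0 CPM in the remainder. Each part was below Untreated within each of the 3 mice, but the groups overlapped. The log2 fold changes were 0.14 in IL4 (95% interval -0.11 to 0.38), -0.22 in the difference (-0.46 to 0.03) and -0.24 in the remainder (-0.49 to 0.00), with adjusted p = 0.66, 0.19 and 0.14. Scaled by total counts, the changes of -0.31 and -0.35 in the parts passed.

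Tnfaip3, which encodes A20 and curbs the signal by editing ubiquitin chains upstream of the kinase complex, had small log2 fold changes of opposite sign in the parts. It had 33.1, 35.1 and 33.2 CPM in Untreated, 41.4, 36.6 and 35.2 CPM in IL4, 29.3, 30.4 and 28.3 CPM in the difference and 35.3, 38.7 and 35.5 CPM in the remainder. The difference lay below, and IL4 and the remainder just above, all untreated libraries. None of the log2 fold changes passed, at 0.16 in IL4 (adjusted p = 0.45), -0.20 in the difference (adjusted p = 0.12) and 0.11 in the remainder (adjusted p = 0.39). The remainder was above the difference by 0.32 (95% interval 0.13 to 0.51, adjusted p = 0.056), with within-mouse log2 ratios of 0.27, 0.35 and 0.33, and this passed by DESeq2 (adjusted p = 0.035). Scaled by total counts, the -0.29 of the difference against Untreated passed (adjusted p = 0.018).

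Of the summed level of the 4 IκB family genes among the members, taken per length, Bcl3 held 12.2% to 15.0% in Untreated, 11.5% to 12.9% in IL4, 23.3% to 27.0% in the difference and 21.7% to 25.2% in the remainder. Nfkbiz held 5.60% to 7.59% in Untreated, 4.06% to 5.09% in IL4, 3.19% to 4.05% in the difference and 1.10% to 2.40% in the remainder. The nuclear members therefore differed in direction, and Nfkbia held 60.7% to 74.1% of this sum over the 12 libraries. Other IκB genes are not in the sum.

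**Figure D4:**
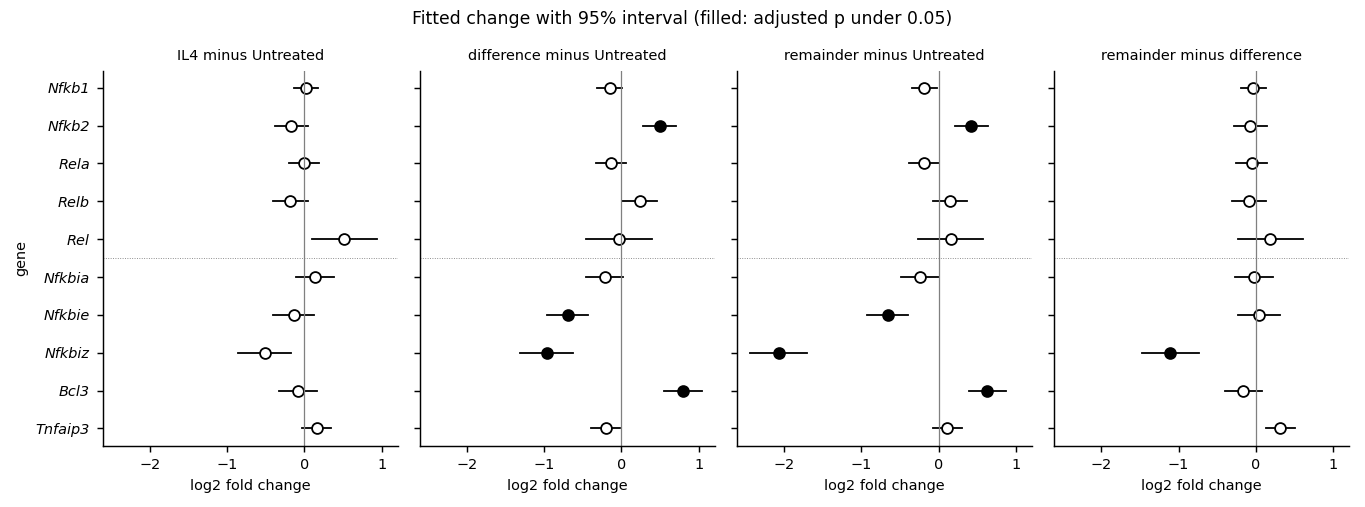
Fitted log2 fold changes (horizontal axes) of the 10 genes in 4 comparisons, with 95% intervals. Filled points passed an adjusted p of 0.05. Nfkbiz, Nfkbie, Bcl3 and Nfkb2 are filled in both comparisons of a part with Untreated, Nfkbiz alone is filled between the parts, and no point is filled for IL4.

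The rest of the pathway was read from lists of kinases and adaptors, of other inhibitors and of textbook target genes. These lists, too, were chosen with earlier results of these data known. Of 21 kinases and adaptors, 4 were called in each part against Untreated, 3 higher and 1 lower, and 0 were called in IL4 or between the parts by edgeR or DESeq2, where 2 and 3 had an unadjusted p under 0.05. The 19% of the list called in each part stood beside 23.2% and 25.3% of all tested genes. Traf1, an adaptor of the TNF receptors and itself a textbook target, rose most, from 34.3 to 38.5 CPM in Untreated to 91.4 to 101.4 CPM in the difference and 98.1 to 111.4 CPM in the remainder (log2 fold changes 1.40 and 1.48, adjusted p = 7e-08 and 2.9e-08). Birc3, a ubiquitin ligase of the same receptor complex, rose by 0.68 and 0.53 on the log2 scale. Irak2, a kinase of the toll-like receptor pathway, fell by 0.37 in the difference, and Tab2, an adaptor of the kinase TAK1, fell by 0.33 in the remainder. The median log2 fold change of the list was -0.01 in IL4, 0.07 in the difference and -0.03 in the remainder, close to that of all genes.

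Of 15 other inhibitors, 2 were called in IL4 (1 higher, 1 lower) and 6 in the difference (2 higher, 4 lower). The remainder had 4 (1 higher, 3 lower), and 3 were called between the parts (2 higher, 1 lower). These shares of 13.3%, 40%, 26.7% and 20% stood beside 3.4%, 23.2%, 25.3% and 5.25% of all tested genes. The 2 in IL4 became 1, without the higher one, Tnip3, when scaled by total counts or without any 1 of the IL4 libraries or the untreated library of mouse 2 or 3, and 0 without mouse 3. The 4 in the remainder became 0 without mouse 3 and 2 with the mouse as replicate block. Zfp36, which destabilizes cytokine mRNAs, fell by 0.93 on the log2 scale in the difference, from 147.1 to 171.2 CPM in Untreated to 77.7 to 88.0 CPM. Irak3, a brake on toll-like receptor signaling, rose by 0.66 in the difference, with 84.0 to 108.1 CPM against 58.5 to 63.7 CPM in Untreated, and fell by 0.55 in IL4, with 40.1 to 44.1 CPM. Irak3 was lower in the remainder than in the difference by a log2 fold change of -0.86. In that comparison Zfp36 was higher by 0.65 and Zc3h12a by 0.34, the latter close to the threshold (adjusted p = 0.047 by edgeR). Otulin, a deubiquitinase, fell by 0.55 and 0.43 in the parts, and Otud7b, another deubiquitinase, by 0.49 in the remainder. Tnip3, a partner of A20, rose by 0.66 in IL4 and by 0.42 in the remainder.

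Of 22 textbook NF-κB target genes, 20 were tested, since Il6 had at most 3 counts and Csf2 had 0 in every library. In the difference, 14 of the 20 were called (9 higher, 5 lower), in the remainder 17 (11 higher, 6 lower), in IL4 5 (1 higher, 4 lower) and between the parts 5 (2 higher, 3 lower). These shares of 70%, 85%, 25% and 25% stood beside 23.2%, 25.3%, 3.4% and 5.25% of all tested genes. The 5 in IL4 became 2 without mouse 3 and 3 without mouse 1, and the 5 between the parts became 2 without mouse 3. Their median log2 fold change was 0.45 in the difference, 1.03 in the remainder and -0.09 in IL4. The medians of the parts were the same when the genes with at most 3 counts in every untreated library, Il12b and Nos2, were set against 3 counts per library. Both genes lay above the median either way, so this could not move it. The list thus held changes in both directions.

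The chemokine gene Ccl5 rose in both parts, from 166 to 242 counts in Untreated to 28712 to 39457 in the difference and 24376 to 39579 in the remainder (log2 fold changes 7.52 and 7.38, adjusted p = 5.4e-12 and 6.5e-12). Nos2, the inducible nitric oxide synthase, had at most 1 count in Untreated, 28 to 157 counts in the difference and 60 to 161 in the remainder. Il12b, a cytokine subunit, had at most 2 counts in Untreated, 10 to 28 in the difference and 5 to 10 in the remainder. Ptgs2, which makes prostaglandins, rose by 2.85 on the log2 scale in the difference and by 3.26 in the remainder. The cytokine genes Il1a and Il1b rose by 3.48 and 3.30 in the difference and by 3.14 and 1.74 in the remainder. Il1a had only 3 to 4 counts per library in Untreated. Tnf, another cytokine gene, fell by 1.46 in the difference and by 1.74 in the remainder. Ccl4, another chemokine gene, fell by 2.43 and 2.37 in the parts and by 0.92 in IL4. Ccl3 fell by 1.30 in the difference, by 1.78 in the remainder and by 0.95 in IL4. Cxcl10, a chemokine gene that interferons also induce, fell by 1.16 in IL4 and by 1.12 in the remainder. Its log2 fold change of -0.30 in the difference did not pass.

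**Figure D5:**
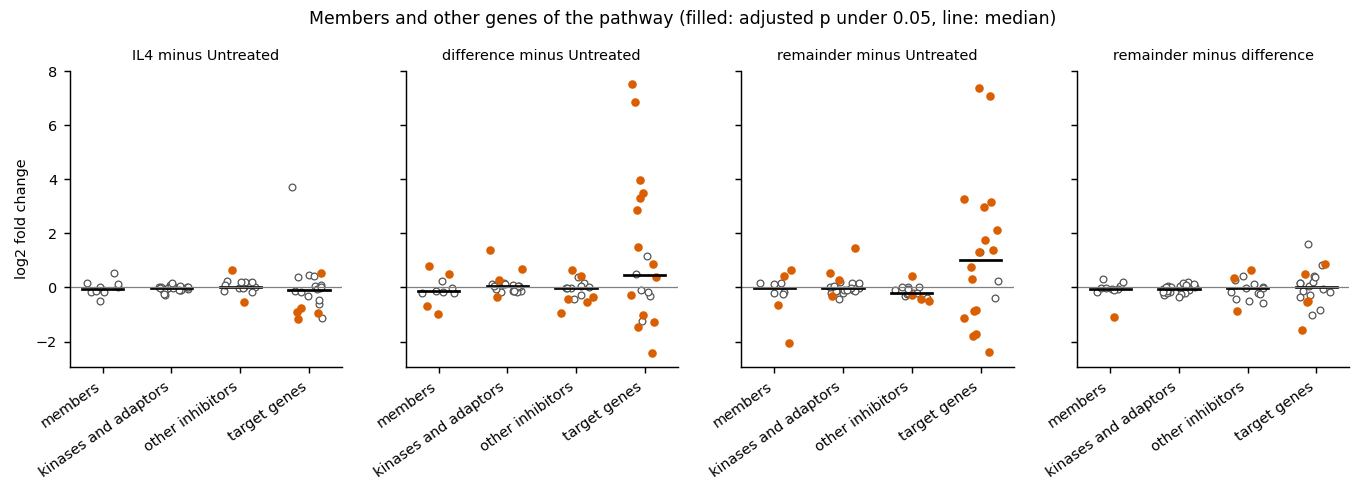
Fitted log2 fold changes (vertical axis) of the 10 genes, the 21 kinases and adaptors, the 15 other inhibitors and the 20 tested target genes in 4 comparisons. Each point is a gene, filled where the adjusted p was under 0.05, and lines are medians. The target genes spread in both directions in the parts, while Traf1 and Birc3 are the highest points of the kinases and adaptors there.

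For the 4 members with the widest range of group means, the genes that followed them most closely over the 12 libraries were named by Pearson's r of log2 CPM among 8501 genes whose mean level reached 8 CPM. They were Lyn (r = 0.977) and Cat (r = 0.976) for Nfkbiz, Kctd17 (r = 0.983) and Gys1 (r = 0.982) for Bcl3, Rgs10 (r = 0.976) and Rab11b (r = 0.969) for Nfkbie, and Atp13a2 (r = 0.978) and Nectin2 (r = 0.975) for Nfkb2. The 12 libraries share 4 groups and 3 mice, so that genes with like group means score high.

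By position in the mm10 genome the 10 genes lie on 8 chromosomes, and all are annotated as protein coding. Bcl3 (chr7:19808462-19822770, minus strand) and Relb (chr7:19606217-19629438, minus strand) are on the same chromosome, as are Nfkb2 (chr19:46304320-46312385, plus strand) and Rela (chr19:5637483-5648130, plus strand). Nfkbiz lies at chr16:55811375-55838899 (minus strand), Nfkbie at chr17:45555703-45563169 (plus strand), Nfkbia at chr12:55489410-55492647 (minus strand), Nfkb1 at chr3:135584655-135691547 (minus strand), Rel at chr11:23736847-23770970 (minus strand) and Tnfaip3 at chr10:19000910-19015657 (minus strand). Apart from Nfkb2 and Bcl3, 0% of their exon bases overlapped another gene, and at most 0.67% of their 50-base stretches occurred in another gene.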

How the data were processed

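RNA was sequenced from 12 BMDM cultures of 3 mice. The authors deposited raw read counts per gene. Per the labels and the study's methods, single reads were checked with FastQC 0.11.7, trimmed with Trimmomatic 0.36, aligned to mm10 with STAR 2.6.0 and counted with HTSeq 0.11.1, and DESeq2 1.24.0 was used for the study's own tests. Of 48526 identifiers, 48058 (99.0%) were paired with a symbol, and 0 columns were left unused. The difference and remainder of each mouse were solved from the columns that share reads.

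A gene was tested when 3 or more of the 12 libraries held 10 or more of its counts, which left 12421 genes. They were tested in 1 fit with edgeR 4.0.16 (R 4.3.3), using TMM factors and the quasi-likelihood test, without a term for the mouse and with Benjamini-Hochberg adjustment over all tested genes. CPM are relative to TMM-scaled library sizes, and CPM per kb are divided by the exon bases of the gene in the GENCODE vM21 annotation of mm10. Exon bases were merged over all annotated transcripts of a gene, whether or not the cells used them, and the levels and shares per length depend on this. Intervals are 95% intervals of the fitted log2 fold change. On simulated counts with 200 changed genes, 186 were recovered with 3 false calls among 12250 genes. Each change was a 2-fold rise or fall in a gene above 1 CPM, with 1 spread for all genes and no mouse effect. The recovery therefore says nothing of smaller changes, as most of those of the members were. Recovery by size of change was not tested. Every group holds 1 culture of every mouse, so the mouse numbers pair the samples. As a check, the correlation across genes of the deviations from the group mean, taken for 2 samples of a mouse, was -0.417 to 0.454 over 18 pairs and above 0.1 in 6. Cultures of a mouse were single, so the spread behind the p-values mixes that between mice with that between cultures and libraries.

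The 10 members are named in every comparison. Of each other list the counts are given, with values of the 3 largest changes among called genes in each comparison with untreated cells. Genes most like a member are given for the 4 members with the widest range of group means. Irak3, Zfp36 and Zc3h12a between the parts were added after their values were seen. So were Ccl3, Ccl4, Cxcl10, Il1a, Il1b and Tnf in the parts, Ptgs2 in the difference and Il12b in the remainder. The members and lists were chosen with earlier results of these data known. Alternatives were DESeq2 1.42.0, DESeq2 size factors or total counts as scaling, all genes with a count, at least 1 CPM in at least 3 libraries, only the groups compared, the mouse as replicate block, an adjusted p of 0.01, a limit of 1 on the size of the log2 fold change, the columns as deposited, and each mouse or library left out.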

Additional observations from a re-analysis of the deposited data

How the results depend on the processing

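No change of a member against another group turned its direction in any alternative where it was called. The 4 member calls in each part against Untreated numbered 3 to 5 with 1 mouse or library left out, and 8 and 7 when scaled by total counts. They numbered 0 in the difference and 1 in the remainder, Nfkbiz, when the size of the log2 fold change had to reach 1. Member calls in IL4 numbered 1 by DESeq2, with only the groups compared and with the deposited columns, 2 with all genes with a count (Nfkbiz and Rel, adjusted p = 0.0021 and 0.0005), and 0 to 1 with a mouse or library left out. Between the parts they numbered 2 by DESeq2 and with at least 1 CPM in at least 3 libraries (Nfkbiz and Tnfaip3), 0 with the deposited columns, which share reads, and 0 to 2 with a mouse or library left out, the 0 being without mouse 3. Single libraries also decided calls near the threshold. Nfkbiz passed in IL4 without the remainder of mouse 1 or mouse 2 (adjusted p = 0.011 and 0.049), Relb in the difference without the difference of mouse 1 or the untreated library of mouse 2 (0.050 and 0.046), Rela in the remainder without mouse 1 (0.028), and Tnfaip3 between the parts without the untreated library of mouse 1 or mouse 2 (0.048 and 0.042). With the deposited columns, Nfkb1 was called lower in both Wnt3a columns, by log2 fold changes of -0.17 and -0.18.

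Over all tested genes, the 422 calls in IL4 became 812 with all genes with a count, 227 at an adjusted p of 0.01, 133 with that fold limit, 708 with the deposited columns, and 77 to 532 with a mouse or library left out. The 2884 calls in the difference became 1687 at the stricter p, 842 with the fold limit and 1220 to 3188 with a mouse or library left out, and the 3137 in the remainder became 1960, 917 and 1375 to 3807. The 652 calls between the parts became 1454 with all genes with a count, 422 with only the groups compared, 279 at the stricter p, 184 with the fold limit, 0 with the deposited columns and 97 to 1188 with a mouse or library left out. The lowest of these ranges came in each comparison without mouse 3, and the highest between the parts came without mouse 2. The cause was not tested.

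Scaled by total counts, the higher and lower calls went from 287 and 135 to 247 and 212 in IL4, from 1462 and 1422 to 1131 and 2238 in the difference, and from 1687 and 1450 to 1293 and 2342 in the remainder. Of the 3 pathway lists, the kinases and adaptors went from 3 higher and 1 lower in each part to 2 and 4 in the difference and 2 and 5 in the remainder, and the other inhibitors to 1 and 6 and to 0 and 7. With a mouse or library left out, calls in the difference and in the remainder numbered 2 to 4 and 2 to 6 of the kinases and adaptors, 4 to 6 and 0 to 5 of the other inhibitors, and 11 to 14 and 13 to 17 of the target genes. The replicate block left 3 kinases and adaptors and 4 other inhibitors called in the difference. With it, member calls were 0, 4, 4 and 1 in the 4 comparisons and calls over all tested genes 391, 2659, 2858 and 556, and the block changed no call of a member. Fits with fewer libraries have fewer degrees of freedom. Among the members, the lowest counts behind a called value were the 117 to 218 per library of Nfkbiz in the remainder, and 3 mice per group limit all tests.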
